A study of Mus musculus with 70 samples.

Results

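Slc7a11 and the genes that work with it in cystine uptake, glutathione synthesis and the defense against oxidants were followed in sorted tumor cells after histotripsy. The 10 genes, of 55487 named lines in each count table, were chosen by symbol: Slc7a11, Slc3a2, Gclm, Gclc, Txnrd1, Srxn1, Nqo1, Gpx4, Nfe2l2 and Keap1. RNA was counted in 70 libraries of cells sorted from B16F10 tumors, a melanoma line of C57BL/6 origin grown under the skin of both flanks of male and female C57BL/6 mice that were 6 to 8 weeks old when bought. Histotripsy breaks tissue mechanically with focused ultrasound. A single tumor of each mouse received partial histotripsy or a sham procedure 10 days after inoculation, and cells were sorted 3 or 7 days later by CD45, the surface protein of blood-derived cells.

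The groups were control tumors of sham-treated mice, histotripsy-treated tumors, and histotripsy-abscopal tumors, the untreated tumors on the other flank of treated mice. In that order of groups, the CD45- fraction had 4, 7 and 7 libraries on day 3 and 11, 3 and 4 on day 7, and the CD45+ fraction had 4, 6 and 7 on day 3 and 10, 3 and 4 on day 7. The labels do not say which libraries came from 1 mouse or whether each is a separate mouse, so the p-values measure the spread between these libraries, and every tumor came from a single cell line.

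Slc7a11 encodes the light chain of system xc-, which brings cystine into the cell in exchange for glutamate, and Slc3a2 encodes the heavy chain that carries it to the membrane. Cystine is reduced to cysteine, which glutamate-cysteine ligase (catalytic subunit Gclc, modifier subunit Gclm) joins to glutamate in the first step of glutathione synthesis, and Gpx4 spends glutathione to reduce lipid peroxides, whose unchecked spread kills cells by ferroptosis. Txnrd1 (thioredoxin reductase), Srxn1 (sulfiredoxin, which repairs over-oxidized peroxiredoxins) and Nqo1 (a quinone reductase) belong to the neighboring thiol and quinone defenses. Nrf2, encoded by Nfe2l2, is a transcription factor that drives many of these genes through antioxidant response elements, and Keap1 marks it for degradation. Slc7a11 is also a known target of Atf4, which acts in amino acid shortage through amino acid response elements.

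These 2 kinds of element were searched in the promoters, since they are the sites through which the members are known to be controlled together. Promoters of 300 bases (250 before and 50 after each start) came from RefSeq on GRCm38.p6, and 9 of the 10 genes had one, Gclc being the exception. The letters TGACNNNGC of the antioxidant response element, on either strand, were in 4 of the 14 promoters of these 9 genes (1 each of Nfe2l2, Srxn1, Gclm and Txnrd1) and in 12.4% of 32851 promoters. The letters TGATGNAA of the amino acid response element were in 1 of the 14, that of Slc7a11, which held them on both strands, and in 3.97% of all promoters. The stretches below are printed on the strand of the gene with the matching letters in capitals: Slc7a11 at chr3:50443633-50443699 (minus strand), Nfe2l2 at chr2:75704875-75704913 (minus), Gclm at chr3:122245403-122245451 (plus) and Txnrd1 at chr10:82859094-82859142 (plus).
Slc7a11: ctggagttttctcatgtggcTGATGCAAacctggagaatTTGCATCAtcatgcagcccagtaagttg
Nfe2l2: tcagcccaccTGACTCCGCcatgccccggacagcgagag
Gclm: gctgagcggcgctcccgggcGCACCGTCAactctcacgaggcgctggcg
Txnrd1: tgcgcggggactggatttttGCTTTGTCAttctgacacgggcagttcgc
A match only says that these letters stand in the window. No binding was measured.

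Depth was 1080212 to 3820705 counts per CD45- library and 887798 to 2824959 per CD45+ library. Ptprc, the gene of CD45, had 0 to 3 counts in each CD45- library and 929 to 2916 in each CD45+ library, so the sorting labels held in all 70. Levels are given as CPM, counts per 1000000 counts of a library, with library totals scaled within each table by TMM, a factor that allows for a few genes taking up much of a library. Summed over 7 melanoma markers, CD45- libraries held 24428 to 37792 CPM and CD45+ libraries 91.9 to 2235 CPM, where the highest value belonged to a histotripsy-abscopal day 3 library. QuantSeq reads the 3′ end of each transcript, so levels are compared between libraries and not between genes. The libraries pool all cells of a fraction, so more RNA per cell and more cells of a type that makes it cannot be told apart.

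Slc7a11 (GRCm38 chromosome 3, 49892526 to 50443614, minus strand) was far higher in CD45+ than in CD45- cells in every group. In control CD45- cells on day 3 it stood at 15.9, 14.5, 32.4 and 14.9 CPM, and in control CD45+ cells at 50.3, 76.5, 122 and 161 CPM, with no overlap. In control cells on day 7 it ran from 11.2 to 34.4 CPM (median 19.4, n = 11) in the CD45- fraction and from 70.4 to 484 CPM (median 177, n = 10) in the CD45+ fraction, again without overlap. The fitted difference was 2.69 on the log2 scale (SE 0.46, 6.47-fold, adjusted p = 3.29e-06) on day 3 and 3.55 (SE 0.31, 11.7-fold, adjusted p = 4.06e-13) on day 7, in the quasi-likelihood test of edgeR, with p-values adjusted by Benjamini-Hochberg over all genes. Differences between fractions come from 1 scaling of both tables of a day, which in control tumors put the members' fitted log2 differences above the log2 ratio of the printed means by a median of 0.29 on day 3 and 0.24 on day 7. Of the 9 tested members this turned the sign of Gclc on day 3, and of Gclc and Srxn1 on day 7, none of which passed the test.

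**Figure D1:**
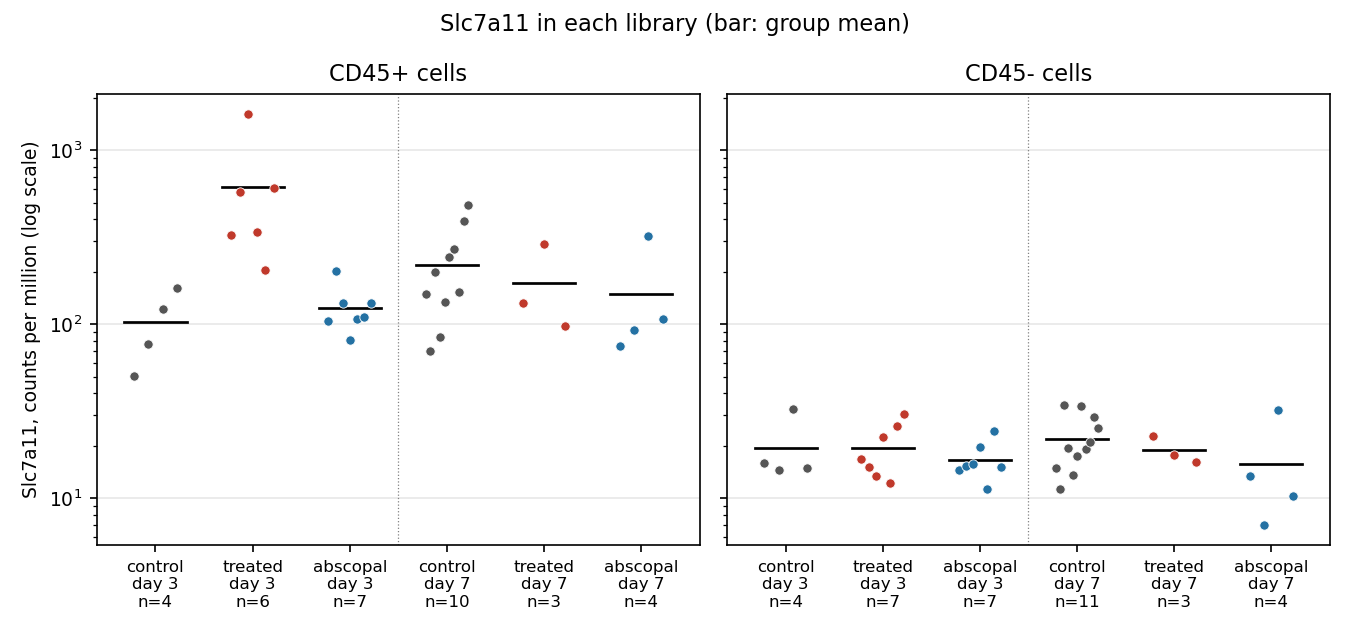
Slc7a11 in each of the 70 libraries (vertical axis, CPM on a log scale) by fraction, day and group, with the bar at the group mean. The CD45- libraries lie between 7.04 and 34.4 CPM and the CD45+ libraries between 50.3 and 1614 CPM, with the 6 histotripsy-treated CD45+ libraries of day 3 between 206 and 1614 CPM.

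Ordered by group mean, Slc7a11 in CD45+ cells was highest in histotripsy-treated tumors on day 3 (611 ± 515 CPM, SD, n = 6). Control tumors on day 7 followed (218 ± 133 CPM, n = 10), then histotripsy-treated (172 ± 101 CPM, n = 3) and histotripsy-abscopal ones on day 7 (149 ± 117 CPM, n = 4), and last histotripsy-abscopal (124 ± 38.5 CPM, n = 7) and control tumors on day 3 (103 ± 49.1 CPM, n = 4). Each neighboring pair in this order had overlapping libraries. The 6 CD45- groups had means of 15.8 to 21.8 CPM, and their ranges overlapped one another.

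The other partners and regulators differed between the fractions of control tumors by much less. Nfe2l2 had 165 ± 9.18 CPM (SD, n = 4) in CD45- and 329 ± 94.6 CPM (n = 4) in CD45+ control cells on day 3, with every CD45+ library above every CD45- library, a log2 difference of 1.28 (adjusted p = 1.75e-07, edgeR). Its repressor Keap1 was also higher in CD45+ cells, with 44.1 ± 6.36 against 57.2 ± 3.46 CPM and a log2 difference of 0.66 (adjusted p = 0.000493, edgeR). Both the factor and its repressor thus stood higher in the CD45+ fraction. Slc3a2 was at 351 ± 36.8 CPM in CD45- and 410 ± 35.3 CPM in CD45+ control cells on day 3 (log2 difference 0.51, adjusted p = 0.00316, edgeR). With library totals in place of TMM its difference was 0.33 (adjusted p = 0.0647).

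Gclm ran the other way. It was at 52.5 ± 4.02 CPM (n = 4) in CD45- and 27.3 ± 5.44 CPM (n = 4) in CD45+ control cells on day 3, and all 4 CD45+ libraries lay under all 4 CD45- libraries (log2 difference -0.63, adjusted p = 0.00654, edgeR). Its catalytic partner Gclc did not pass the test (39.3 ± 7.58 and 33.7 ± 2.59 CPM, log2 difference 0.06, 95% interval -0.36 to 0.48). Txnrd1 had 191 ± 23.3 CPM in CD45- and 127 ± 8.24 CPM in CD45+ control cells, with a log2 difference of -0.30 that missed the threshold on day 3 (adjusted p = 0.0661) and of -0.26 that passed it on day 7 (adjusted p = 0.0194, edgeR). On day 7 it was -0.21 (adjusted p = 0.0610) over libraries of at least 1000000 counts. Srxn1 did not pass the test on either day in control tumors (-0.08 and 0.24).

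Of the 9 genes tested in control tumors on day 3, 4 were called higher in CD45+ cells (34.5% of the 12392 genes tested) and 2 lower (30.6%), as against 65.2% of all genes called in either direction. On day 7 these were 4 higher (42.1% of 12863 genes) and 3 lower (38.3%), as against 80.4%. The share of members called was thus close to that of all genes. Groups did not overlap for 5 members on day 3 (62.6% of genes) and 3 on day 7 (47.8%). The median log2 difference of the members was 0.06 on day 3 and 0.24 on day 7, beside 0.04 and 0.05 over all genes.

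The 4 genes higher in CD45+ cells of control tumors (Slc7a11, Nfe2l2, Keap1, Slc3a2) were also called higher in the other tested groups. In histotripsy-abscopal tumors on day 3, Slc7a11 differed by 3.25 (SE 0.35, adjusted p = 2.14e-10, edgeR) and Nfe2l2 by 1.69 (adjusted p = 2.44e-13), and 4 members were higher (39.8% of genes) and 4 lower (35.3%, and 75.2% in either direction). The lower ones were Gclm (-0.75), Txnrd1 (-0.31), Srxn1 (-0.62, adjusted p = 0.0171) and Gpx4. Srxn1 was at 87.9 ± 31.4 CPM (SD, n = 7) in these CD45- and 46.6 ± 5.33 CPM (n = 7) in these CD45+ libraries. On day 7, 4 members were higher and 1 lower in histotripsy-treated tumors (34.3% and 31.3% of genes, 65.6% together), and 4 higher and 2 lower in histotripsy-abscopal tumors (35.9% and 33.7%, 69.5% together). Slc7a11 differed there by 3.37 (adjusted p = 6.98e-06) and 3.40 (adjusted p = 5.53e-07, edgeR). In histotripsy-treated tumors on day 3, given as a description, it differed by 5.30 (SE 0.37) and Nfe2l2 by 1.97.

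**Figure D2:**
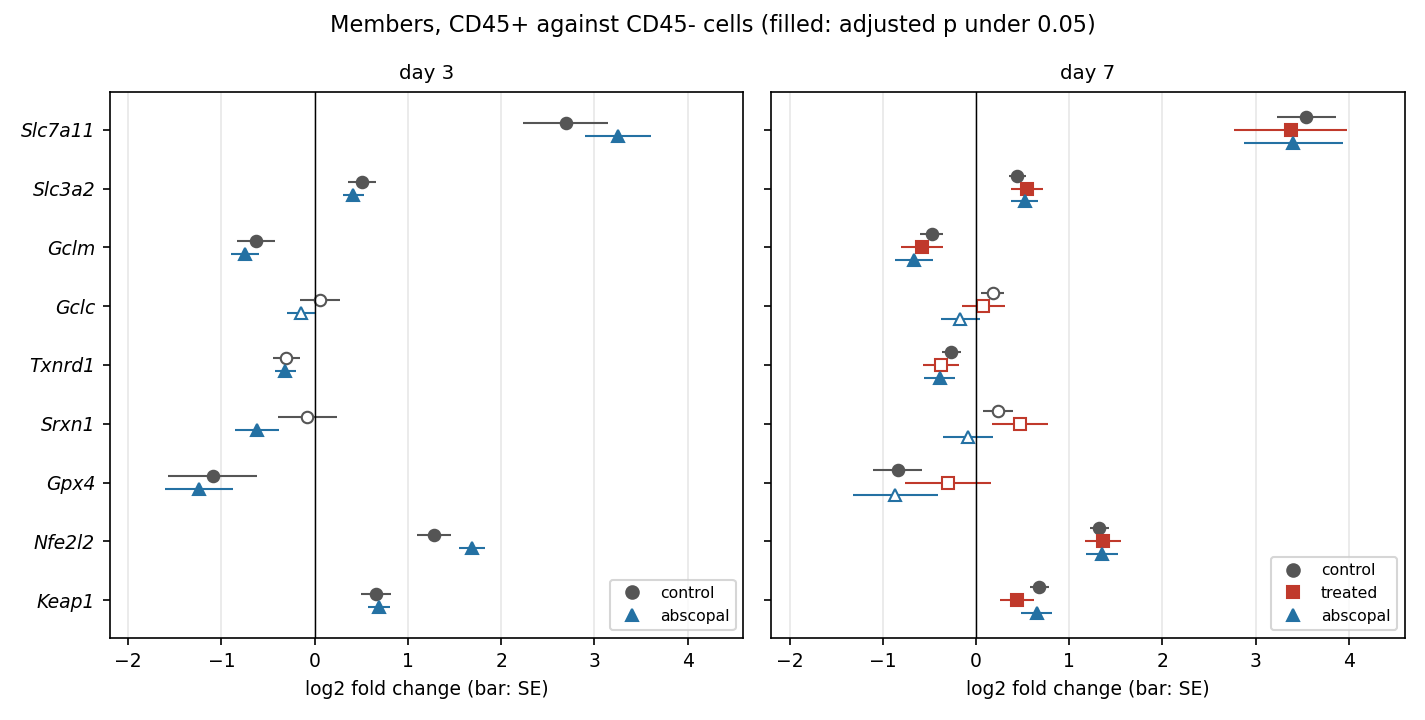
Log2 difference between CD45+ and CD45- cells (horizontal axis, bars are the SE) for the 9 tested members in control and histotripsy-abscopal tumors on day 3 and in all 3 groups on day 7, with filled points at an adjusted p under 0.05. Slc7a11 lies between 2.69 and 3.55 in every group shown, Nfe2l2 between 1.28 and 1.69, and Gclm between -0.75 and -0.48.

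Gpx4 could not be read from its own line alone. The last 500 bases of its transcript match the pseudogene Gpx4-ps2 at 99.8%, and Gpx4-ps2 had more counts than Gpx4 in 36 of 36 CD45- and 34 of 34 CD45+ libraries, so that Gpx4 took 7.98% and 7.12% of the counts of both. The Gpx4 line alone had 6 to 102 counts in CD45- and 0 to 34 in CD45+ libraries, and its lower level in CD45+ control cells on day 3 (-1.09, adjusted p = 0.0438, edgeR) lost the call in 5 of the 8 fits in which a library was dropped. Adding both lines gave group means of 206 to 260 CPM in CD45- and 89.2 to 128 CPM in CD45+ cells. The summed level was lower in CD45+ cells of control tumors by 0.98 on day 3 and 1.03 on day 7 on the log2 scale, at adjusted p = 3.17e-05 and 1.21e-10 (edgeR), and passed the test in all 5 tested groups. Nqo1 was at or near the floor, with 2 to 17 counts in CD45- and 0 to 5 in CD45+ libraries, and was not tested within any table.

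In CD45+ cells on day 3, histotripsy-treated tumors had the highest Slc7a11 values of the series. The gene set was taken up because of this rise, so every comparison with these 6 libraries is given as a description without a p-value. Slc7a11 stood at 326, 575, 1614, 339, 206 and 609 CPM in histotripsy-treated replicates 1 to 6, at 50.3 to 161 CPM in the 4 control libraries, and at 81.2 to 202 CPM (median 110) in the 7 histotripsy-abscopal libraries. All 6 histotripsy-treated libraries lay above every other CD45+ library of day 3. The fitted difference was 2.56 (SE 0.46, 5.89-fold) against control and 2.30 (SE 0.37, 4.91-fold) against histotripsy-abscopal tumors on the log2 scale.

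Txnrd1 and Srxn1 differed by less than Slc7a11. Txnrd1 was at 115 to 133 CPM in the 4 control libraries and at 173, 227, 253, 213, 171 and 175 CPM in the histotripsy-treated replicates 1 to 6, and these groups did not overlap (log2 difference 0.67, SE 0.15). Against histotripsy-abscopal libraries (115 to 176 CPM, median 137) Txnrd1 overlapped, at 0.52 (SE 0.13). Srxn1 was at 18.3, 29.6, 58.7 and 76.1 CPM in control and at 55.3, 99.1, 124, 105, 61.6 and 64.1 CPM in histotripsy-treated libraries. It overlapped control (0.86, SE 0.29) and stood above all 7 histotripsy-abscopal libraries, whose values were 35.2 to 50.9 CPM (0.86, SE 0.24).

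Nfe2l2 was at 464, 323, 255 and 272 CPM in control and at 367, 585, 792, 560, 416 and 461 CPM in histotripsy-treated libraries (0.69, SE 0.21), with histotripsy-abscopal values of 326 to 454 CPM. The groups overlapped, with 3 of 6 histotripsy-treated libraries above every control library. Gclc (0.40, SE 0.23) and Gclm (0.31, SE 0.23) differed less from control: Gclc exceeded every control library in 3 of 6 and lay below all of them in 2, and Gclm exceeded them in 3. Slc3a2 differed by 0.14 (SE 0.16) and Keap1 by -0.16 (SE 0.16), each about as large as its error. The Gpx4 line differed by -0.14 (SE 0.41), and Gpx4 and Gpx4-ps2 added together by 0.53 (SE 0.21), so the sign turned with the line used. The partner chain Slc3a2 was thus near its control level (451 ± 82.5 against 410 ± 35.3 CPM) where Slc7a11 was several times higher.

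As a description only, 3 of the 9 members tested in this table were past the threshold against control (Slc7a11, Txnrd1 and Nfe2l2), beside 6.21% of the 10264 genes higher and 7.79% in either direction. Against histotripsy-abscopal tumors these were 3 (Slc7a11, Srxn1 and Txnrd1), beside 4.87% higher and 5.44% in either direction. Groups did not overlap for 2 members in each comparison, beside 6.77% and 1.34% of genes. The median log2 difference of the members was 0.40 against control and 0.41 against histotripsy-abscopal tumors, beside -0.01 and -0.03 over all genes. Without histotripsy-treated replicates 2 and 3, 1 member, Slc7a11, was past the threshold in each comparison and Txnrd1, Nfe2l2 and Srxn1 were not, and without replicate 3 alone the counts were 2 against control and 1 against histotripsy-abscopal tumors. Since the members were taken up with this comparison known, nothing is read from these counts.

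**Figure D3:**
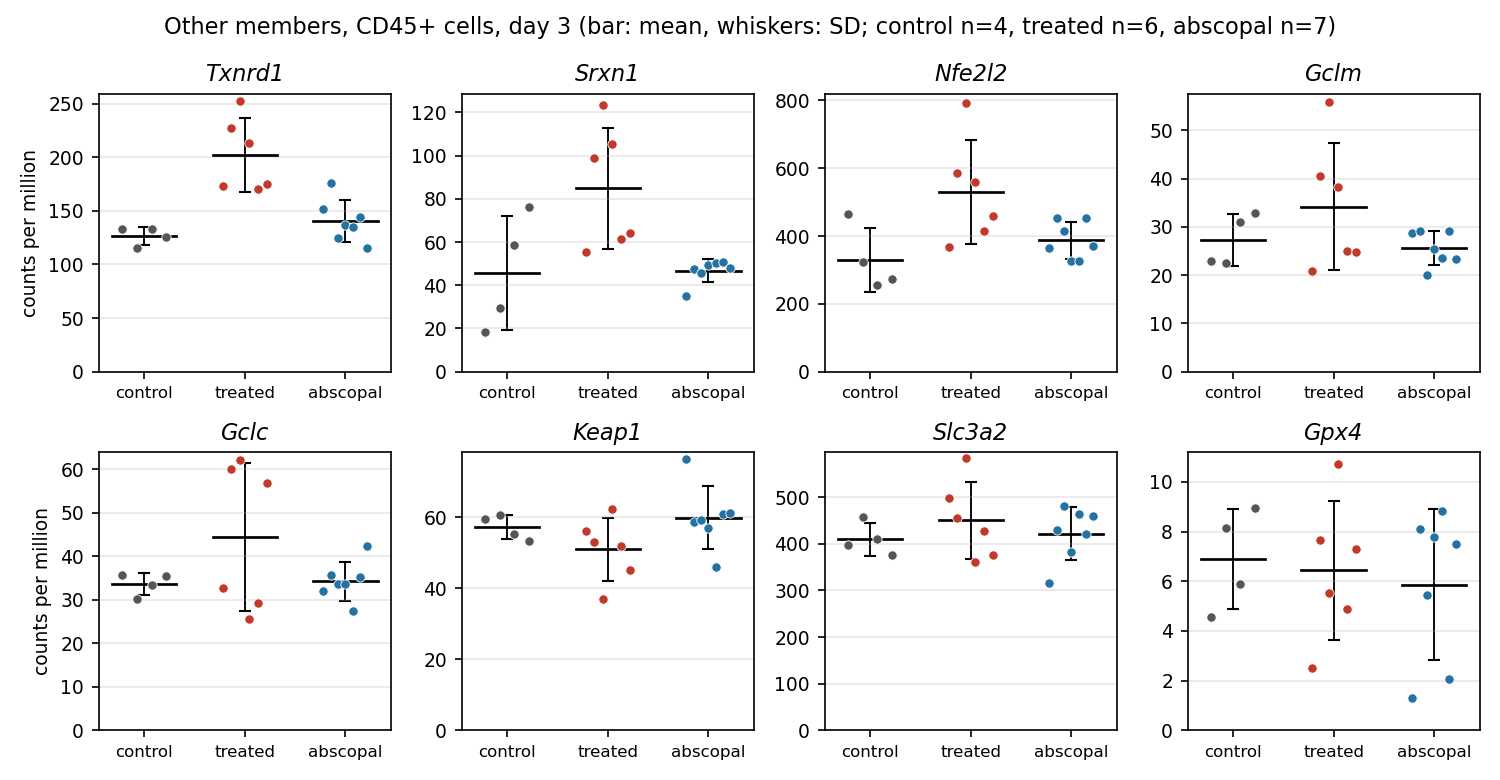
Levels of 8 members in CD45+ cells on day 3 (vertical axes, CPM from 0, one panel a gene) in 4 control, 6 histotripsy-treated and 7 histotripsy-abscopal libraries, with the mean and SD. Txnrd1 separates histotripsy-treated from control libraries (171 to 253 against 115 to 133 CPM), whereas the 7 other genes overlap between these groups.

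Histotripsy-treated replicate 3 was the highest of its group for Slc7a11, Txnrd1, Srxn1, Nfe2l2, Gclm, Gclc and Slc3a2 and the lowest for Keap1. Neutrophil marker RNA also differed between these libraries. The summed level of 6 neutrophil markers was 333 to 2442 CPM in control, 772 to 2585 CPM in histotripsy-abscopal and 1994, 8438, 34590, 4424, 1195 and 4716 CPM in histotripsy-treated replicates 1 to 6 of day 3. The libraries with the highest neutrophil sums, replicates 3 and 2, were the first and the third in Slc7a11. Replicates 1 and 5, whose sums lay within the control range, had 326 and 206 CPM of Slc7a11, above all controls. None of the 6 markers was at 0 throughout a CD45+ group, and in CD45- libraries their sum was at most 1.73 CPM. Summed levels of 3 erythroid markers were 51.7 to 6243 CPM against 47.4 to 649 CPM in control, where Alas2 was at 0, and those of 6 T cell markers were 353 to 1006 CPM against 1156 to 1486 CPM. The sum of 9 monocyte and macrophage markers overlapped (1094 to 2671 against 1783 to 2093 CPM). The part of these cell types in the Slc7a11 values was not tested.

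Without histotripsy-treated replicates 2 and 3, Slc7a11 was 1.82 (SE 0.34) above control and 1.56 (SE 0.28) above histotripsy-abscopal tumors on the log2 scale. Over the same 4 libraries the difference from control was 0.60 for Srxn1, 0.53 for Txnrd1, 0.46 for Nfe2l2, 0.09 for Gclc and -0.02 for Gclm. The values of Gclc and Gclm thus rested on these libraries. Without replicate 3 alone, Slc7a11 was 1.97 above control and 1.71 above histotripsy-abscopal tumors.

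**Figure D4:**
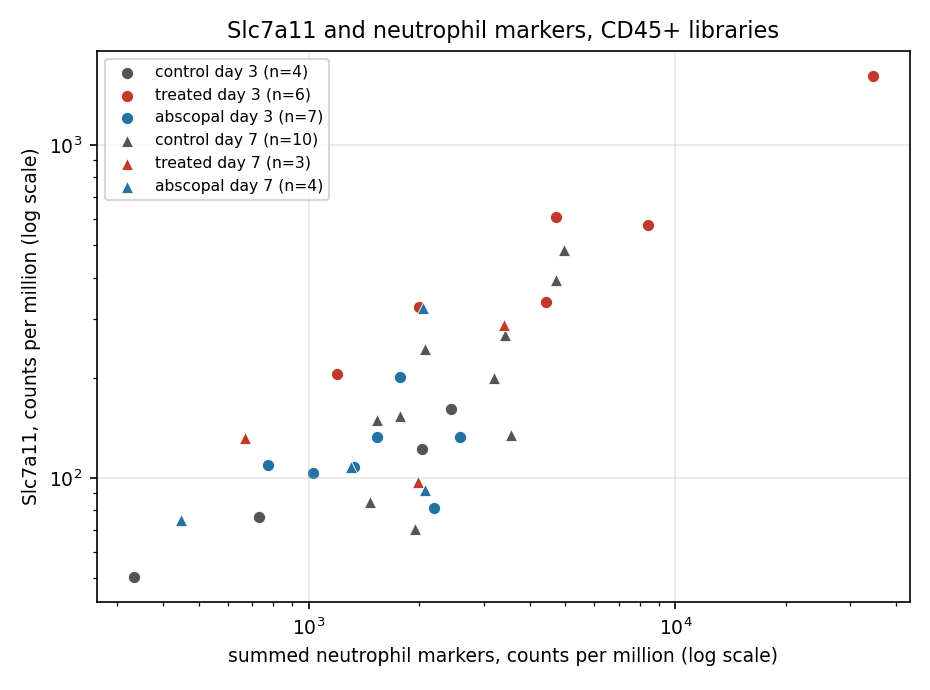
Slc7a11 (vertical axis) against the summed level of 6 neutrophil markers (horizontal axis), both in CPM on log scales, for the 34 CD45+ libraries, marked by group and day. Histotripsy-treated libraries of day 3 run from 206 CPM of Slc7a11 at 1195 CPM of markers to 1614 CPM at 34590 CPM and lie above the other libraries of day 3 in Slc7a11, while control libraries of day 7 reach 484 CPM.

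Lists of related genes are given in the same comparison against control by their values alone. The values here and in the next paragraph include histotripsy-treated replicates 2 and 3, highest in neutrophil markers, and the part of neutrophils in them was not tested. Among genes of glutathione making, use and recycling, Chac1, which breaks glutathione down, was at 13.2 ± 6.59 CPM over the 6 histotripsy-treated and 4.95 ± 1.11 CPM over the 4 control libraries (mean ± SD). Gsr, which recycles oxidized glutathione, was at 91.6 ± 61.5 and 42.2 ± 13.6 CPM. The spread of Gsr among histotripsy-treated libraries was larger than its distance from control. Sqstm1, a cargo receptor of autophagy among the other Nrf2 targets, was at 790 ± 298 and 366 ± 12.3 CPM, and Maff, a small Maf protein that pairs with Nrf2, at 226 ± 97.5 and 81.5 ± 6.23 CPM. The peroxiredoxin Prdx6 had a log2 difference of 0.62 (SE 0.18) and Osgin1 one of 1.17 (SE 0.30).

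In the Atf4 amino acid response, the log2 difference was 1.24 (SE 0.26) for Sesn2, 0.69 (SE 0.20) for Cebpb and 0.51 (SE 0.15) for Atf4 itself, and -0.72 (SE 0.21) for Psph, an enzyme of serine synthesis. Slc7a5, the light chain of another transporter that shares Slc3a2, was at -0.69 (SE 0.31). The fitted values of Slc7a5 and Slc7a11 thus had opposite signs, which was not tested. On the lipid and iron side of ferroptosis the lipoxygenases Alox5 and Alox15 were at 2.29 (SE 0.45) and 3.10 (SE 0.83), and among makers of oxidants in phagocytes the NADPH oxidase subunits Ncf1 and Ncf4 were at 1.29 (SE 0.30) and 0.58 (SE 0.17). The median log2 differences of the tested genes were 0.34 for glutathione (14 genes), -0.17 for thioredoxin (13), 0.19 for other Nrf2 targets (16), 0.18 for Nrf2 partners (13), 0.12 for Atf4 (20), 0.19 for ferroptosis (18) and 0.25 for phagocyte oxidants (7), beside -0.01 over all genes.

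In the untreated tumors of treated mice no member moved past the threshold in CD45+ cells on day 3. Between histotripsy-abscopal and control tumors 0 of 9 members were called by edgeR, 0 had an unadjusted p under 0.05 and DESeq2 called 0, as against 0% of all 10264 genes by edgeR (796 at an unadjusted p under 0.05). Slc7a11 differed by 0.26 (SE 0.42, 95% interval -0.56 to 1.08, adjusted p = 0.891), an interval that holds a difference of up to 1.08 on the log2 scale. Nfe2l2 differed by 0.24 (adjusted p = 0.777), Txnrd1 by 0.15 (adjusted p = 0.808), the Gpx4 line by -0.24 and the sum of Gpx4 and Gpx4-ps2 by 0.40 (adjusted p = 0.662), and 0 genes of the 7 lists were called.

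In CD45- cells, the fraction that holds the melanoma cells, Slc7a11 did not differ detectably on day 3. The histotripsy-treated libraries were at 12.3 to 30.6 CPM (median 16.8, n = 7), of which 2 lay below and 0 above the control range of 14.5 to 32.4 CPM, and the difference was -0.03 (SE 0.26, 95% interval -0.55 to 0.49, adjusted p = 0.995). The control libraries had 25 to 81 counts and an SD of 44.7% of their mean. The interval holds differences from -0.55 to 0.49, and larger ones could also be missed at an adjusted p under 0.05. Without control replicate 3, whose 32.4 CPM was far from the other 3, it was 0.36. Whether the treatment difference of Slc7a11 differed between the fractions was not tested.

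Txnrd1 was the member of CD45- cells closest to the threshold. It was at 175 to 225 CPM (median 182, n = 4) in control and 223 to 323 CPM (median 254, n = 7) in histotripsy-treated libraries, of which 6 of 7 lay above every control library, and the log2 difference of 0.45 (SE 0.11) had an adjusted p of 0.149. Gclc (0.37, adjusted p = 0.350), Srxn1 (0.29), Gclm (0.25, adjusted p = 0.485) and Slc3a2 (0.23, adjusted p = 0.477) pointed the same way without passing. So did the Gpx4 line (0.24) and the sum of Gpx4 and Gpx4-ps2 (0.15). Nfe2l2 (0.02) and Keap1 (0.16) differed least beside Slc7a11. Fibroblast markers moved with this comparison: 5 of them summed to 48.2 to 13818 CPM in histotripsy-treated and 13.3 to 1066 CPM in control libraries, none was at 0 throughout either group, and their part in these values was not tested.

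In that comparison 0 of 9 members were called by edgeR (2 at an unadjusted p under 0.05, and 1, Txnrd1, called by DESeq2), beside 0.0916% of 10921 genes. The median difference of the 9 was 0.24, which was the value of the Gpx4 line, beside 0.01 over all genes, and 8 of 9 were positive. Between histotripsy-abscopal and control CD45- cells on day 3, 0 were called (1 at an unadjusted p under 0.05, Srxn1 at 0.53 with an adjusted p of 0.959, and 0 by DESeq2), beside 0% of genes, of which 567 had an unadjusted p under 0.05. In histotripsy-treated against histotripsy-abscopal cells 0 were called (2 at an unadjusted p under 0.05, Txnrd1 at 0.27 and Gclm at 0.22, and 0 by DESeq2), beside 0.147% of genes.

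**Figure D5:**
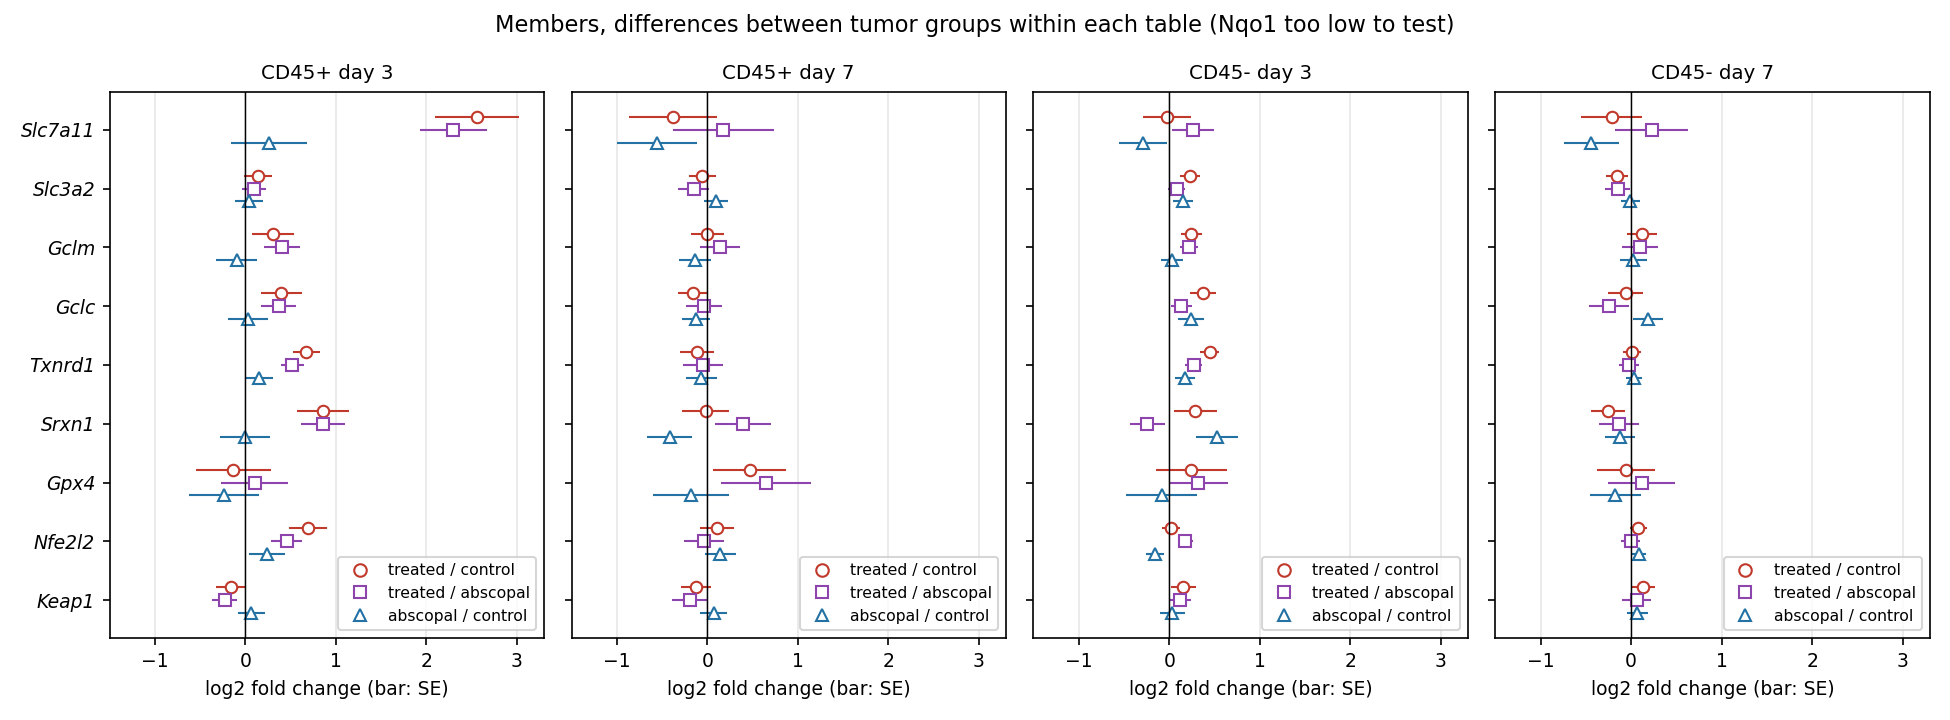
Log2 differences between groups (horizontal axes, bars are the SE) of the 9 tested members in each fraction and day, for histotripsy-treated and histotripsy-abscopal against control and for histotripsy-treated against histotripsy-abscopal tumors. In CD45+ cells on day 3 Slc7a11 lies at 2.56 and 2.30 in the comparisons with histotripsy-treated tumors, and in CD45- cells on day 3 Txnrd1 lies at 0.45 against control.

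By day 7 no member passed the test in any comparison of treatments. In CD45+ cells Slc7a11 was at 132, 288 and 97.5 CPM in histotripsy-treated, at 74.6, 92.1, 323 and 108 CPM in histotripsy-abscopal, and at 70.4 to 484 CPM in control libraries, which spanned all of the treated ones. The difference from control was -0.38 (SE 0.49, not past the threshold) in histotripsy-treated and -0.55 (SE 0.44, adjusted p = 0.805) in histotripsy-abscopal tumors. In CD45- cells it was at 22.7, 17.8 and 16.1 CPM in histotripsy-treated and at 13.4, 7.04, 32.3 and 10.4 CPM in histotripsy-abscopal libraries, with differences from control of -0.21 and -0.44 (adjusted p = 0.673). With 3 and 4 libraries in these groups the intervals were wide, for CD45+ histotripsy-treated tumors -1.33 to 0.58. Leaving out 1 library, the histotripsy-abscopal difference ran from -1.28 to -0.32 in CD45+ and from -1.08 to -0.19 in CD45- cells. Each was lowest without histotripsy-abscopal replicate 3 (323 and 32.3 CPM), and none was called.

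In CD45+ cells on day 7, 0 of 9 members were called in each of the 3 comparisons (0 at an unadjusted p under 0.05, 0 by DESeq2), and so were 0% of 10817 genes in each, with 341 genes (histotripsy-treated against control), 806 (histotripsy-abscopal against control) and 291 (histotripsy-treated against histotripsy-abscopal) at an unadjusted p under 0.05. In CD45- cells 0 of 9 were called in each (0 at an unadjusted p under 0.05, 0 by DESeq2), beside 0%, 0.291% and 0% of 10996 genes in the same order. The median difference of the members lay between -0.13 and 0.02 over the 6 comparisons. Neutrophil markers in CD45+ cells on day 7 summed to 668 to 3411 CPM in histotripsy-treated, 448 to 2069 CPM in histotripsy-abscopal and 1466 to 4979 CPM in control libraries.

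Between the days, Slc7a11 of control CD45+ cells was 0.99 higher on day 7 (SE 0.47, unadjusted p = 0.0417, adjusted p = 0.957, edgeR), and 0 of 9 members were called (0 by DESeq2), beside 0.00889% of 11251 genes. In control CD45- cells Slc7a11 differed by 0.15 and 0 of 10 members were called (1 at an unadjusted p under 0.05, 0 by DESeq2), beside 0% of 11548 genes with 502 at an unadjusted p under 0.05. The day and the count table coincide, so the day and any other difference between the tables cannot be told apart. The treatment difference of Slc7a11 in CD45+ cells fell by 2.90 (SE 0.74) from day 3 to day 7 in histotripsy-treated tumors, given as a description, and by 0.80 (SE 0.66, adjusted p = 0.887) in histotripsy-abscopal tumors, where 0 of 9 members were called (0 at an unadjusted p under 0.05, 0 by DESeq2) beside 0% of genes. In CD45- cells the change was -0.18 for Slc7a11 and -0.44 for Txnrd1 (adjusted p = 0.503) in histotripsy-treated tumors, and 0 of 10 members were called (2 at an unadjusted p under 0.05, 0 by DESeq2), beside 0% of genes. In histotripsy-abscopal CD45- cells 0 of 10 changed between the days past the threshold (1 at an unadjusted p under 0.05, 0 by DESeq2), beside 0.00866% of genes.

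Pathway lists were also compared between the fractions of control tumors, where 34.5% of all genes tested were called higher in CD45+ cells and 30.6% lower on day 3, and 42.1% and 38.3% on day 7. The fit of a day held all its libraries, so the histotripsy-treated ones entered its scaling, filter and spread. Of 18 tested genes of glutathione making, use and recycling on day 3, 7 were higher and 8 lower in CD45+ cells (median -0.75). Glrx (glutaredoxin) was at 149 ± 23.4 CPM in CD45+ and 8.23 ± 1.52 CPM in CD45- cells (4.48, adjusted p = 7.04e-16, edgeR), whereas the glutathione transferase Gsta4 was at 0.760 ± 0.922 and 67.2 ± 10.5 CPM. Of 14 thioredoxin and peroxiredoxin genes 5 were higher, such as Prdx5 (2.85), and 5 lower, such as Txnrd3 (-3.81), with a median of -0.23. Of 19 other Nrf2 targets and NADPH genes 9 were higher and 6 lower (median 0.37), with the malic enzyme Me1 at 0.0933 ± 0.187 CPM in CD45+ and 42.6 ± 9.20 CPM in CD45- cells.

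Of 14 partners and regulators of Nrf2, 7 were higher in CD45+ cells and 4 lower (median 0.33), among the former the repressors Bach1 (2.37) and Bach2 (4.41) that compete for antioxidant response elements. Of 24 genes of the Atf4 response 4 were higher, such as Cebpb (3.89), and 12 lower (median -0.59), such as Asns, asparagine synthetase, at 6.54 ± 2.38 CPM in CD45+ and 70.3 ± 5.86 CPM in CD45- cells. Of 19 genes on the lipid and iron side of ferroptosis 8 were higher and 8 lower (median -0.22), with Acsl3, which activates fatty acids, at 15.2 ± 3.33 and 483 ± 27.9 CPM. All 7 tested phagocyte oxidant makers were higher (Cyba 3.82, adjusted p = 2.15e-18, edgeR). On day 7 the counts were 8 higher and 8 lower of 19 for glutathione, 5 and 8 of 14 for thioredoxin, 9 and 7 of 20 for other Nrf2 targets, 7 and 4 of 14 for Nrf2 partners, 5 and 14 of 24 for Atf4, 8 and 10 of 19 for ferroptosis and 7 and 0 of 7 for phagocyte oxidants.

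The genes whose levels were most like Slc7a11 were found from log2 levels with the mean of each group removed. Over 34 CD45+ libraries and 8230 genes these were Clec4d (Pearson r 0.940, Spearman rho 0.916), Il1a (0.938), Nlrp3 (0.934), Sgms2 (0.927), Gadd45a (0.921), Clec4e (0.920), Cxcl2 (0.915) and Plek (0.900). Clec4d and Clec4e are lectin receptors of myeloid cells, Il1a and Cxcl2 encode a cytokine and a neutrophil-attracting chemokine, and Nlrp3 is an inflammasome sensor. Without the libraries highest and lowest in Slc7a11 after removal of the group means, their r ran from 0.876 to 0.926. Among the members r was 0.736 for Srxn1 (rank 163), 0.633 for Txnrd1 (rank 355), 0.533 for Gclc, 0.506 for Gclm, 0.453 for Slc3a2, 0.311 for Nfe2l2 and -0.541 for Keap1. Without the same libraries these were 0.687, 0.586, 0.473, 0.314, 0.391, 0.108 and -0.413. The libraries share their depth and their mix of cell types, and the r are descriptions.

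Over 36 CD45- libraries and 8207 genes the leading genes were others and less alike: Avl9 (0.655), Slc1a4 (0.652), Phf10 (0.649), Fth1 (0.629), Tk1 (0.625), Nars (0.623), Nup155 (0.618) and Shmt2 (0.611). Slc1a4 carries neutral amino acids, Nars charges asparagine to its tRNA, Shmt2 acts in serine and glycine metabolism and Fth1 stores iron. Slc3a2 (0.518, rank 53) and Txnrd1 (0.506, rank 60) were the closest members, followed by Gclc (0.420), the Gpx4 line (0.355) and Srxn1 (0.351). Nfe2l2 (0.127) and Gclm (0.130) were far down and Keap1 was at -0.293. Without the libraries highest and lowest in Slc7a11, the members in this order were at 0.389, 0.477, 0.343, 0.183, 0.298, -0.0277, 0.0427 and -0.242. Slc7a11 had 17 to 107 counts in these libraries, as against 55 to 2051 in CD45+ libraries.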

How the data were processed

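Counts of QuantSeq 3′ RNA libraries of CD45- and CD45+ sorted B16F10 tumor cells were used as deposited. Per the paper and the submitters' processing notes, the authors demultiplexed with bcl2fastq, trimmed reads with Trim Galore 0.5.0, aligned them to GRCm38 with STAR 2.6.0, collapsed molecular identifiers, and deposited raw featureCounts counts per gene, as a table for each fraction and day. The strand setting was not given in the sources used here, so counts of overlapping genes are uncertain: 1 of 7 annotated 3′ ends of Gclm and 2 of 6 of Keap1 overlap another gene. Each table has 55487 named lines, of which 120 share a symbol. A line without a name in the CD45+ tables equals 100% of the column totals and was left out. Of the columns, 0 had no sample. Positions are from GENCODE M21.

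In R 4.3.3, edgeR 4.0.16 was run on each table with TMM, filterByExpr (minimum count 10, minimum total 15) and 1 term per group. The quasi-likelihood test was used with Benjamini-Hochberg adjustment over all tested genes at 0.05. Fractions were compared in a joint fit of both tables of a day, and days in a joint fit of both tables of a fraction. Printed CPM use the scaling of each table. Intervals are 1.96 SE either side (95%). Near-identical copies of the last 500 bases were sought with blastn 2.17.0 (95% identity over 150 bases or more). Figures were drawn in Python 3.11.15 with matplotlib 3.10.9.

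The members and lists were chosen with earlier results of these data known, Slc7a11 for its rise in CD45+ cells of histotripsy-treated tumors on day 3, so contrasts with those libraries carry no p-value. Named were all members, up to 3 genes per list with the smallest p (in contrasts without a p, the largest difference among genes with a mean of at least 10 CPM), 8 genes most like Slc7a11 in each fraction, and Ptprc. Chac1, Cebpb, Atf4 and Alox15 were named after their values were seen. A gene that this rule would name is not reported here. Libraries of a group differed from each other beyond counting error (chi-square divided by its degrees of freedom, 1.99 to 26.1), and each was entered as 1 replicate. That spread does not show that they came from separate mice. For RNA of CD45- cells on day 3 the paper's legend gives fewer mice per group than the 7 histotripsy-treated and 7 histotripsy-abscopal libraries used here. Sex and batch are not known for a library. Whether libraries of the same replicate number share a mouse is not known. Deviations of such libraries from their group means correlated at -0.38 to 0.457. Medians were 0.166 and 0.0884 on day 3 in CD45- and CD45+ cells, beside -0.0285 and -0.0183 for other pairs. On day 7 they were -0.0658 and 0.0564, beside -0.00461 and -0.00102. These pairs joined control to other tumors too, so pairing by mouse was not tested. Alternatives were DESeq2 1.42.0, library totals, no filter, only libraries of at least 1000000 counts, the 2 groups alone, a replicate block and leaving out each library. Adding Gpx4-ps2 to Gpx4, leaving out the 2 libraries highest in melanoma markers and leaving out the 2 highest in neutrophil markers were chosen after seeing the data.

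On simulated counts the test for histotripsy-treated against control recovered 96.0% of 4-fold and 69.7% of 2-fold changes among 10798 genes of CD45- day 3. The shares were 96.9% and 70.4% among 10870 of CD45- day 7, 96.0% and 56.6% among 10062 of CD45+ day 3, and 95.0% and 67.0% among 10691 of CD45+ day 7. Of the calls, 4.09%, 4.65%, 3.21% and 6.36% in that order were of unchanged genes. Each simulation held 98 to 100 genes changed by each fold, drawn over all genes and not chosen to be as variable as Slc7a11. The adjusted threshold is stricter where fewer genes change. The data of CD45- day 3, CD45- day 7 and CD45+ day 7 had 10, 0 and 0 genes called, so these shares do not carry over to them.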

Additional observations from a re-analysis of the deposited data

Results flagged for a closer look

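Of 90 sets of 4 to 10 libraries examined (members by group), 7 had a highest or lowest library whose gap to the next passed Dixon's 95% value, where chance gives about 1 in 20. Slc7a11 gave 4 of them. In CD45+ histotripsy-treated tumors on day 3, replicate 3 was at 1614 CPM with the next at 609 CPM. In CD45+ histotripsy-abscopal tumors, replicate 2 of day 3 was at 202 CPM (next 133 CPM) and replicate 3 of day 7 at 323 CPM (next 108 CPM). In CD45- control tumors on day 3, replicate 3 was at 32.4 CPM (next 15.9 CPM). Srxn1 was lowest in CD45+ histotripsy-abscopal replicate 1 of day 3, at 35.2 CPM (next 45.5 CPM). Nqo1 was highest in CD45- histotripsy-treated replicate 7 of day 3, at 9.12 CPM (next 4.07 CPM), and in CD45+ control replicate 9 of day 7, at 3.33 CPM (next 1.10 CPM). In the 3 tested contrasts of a treatment difference between the days, 0 members were called by edgeR's quasi-likelihood test and 0 by DESeq2, with at most 2 at an unadjusted p under 0.05.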

How the results depend on the processing

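The counts of members called stayed within 1.5 times under most alternatives. In CD45- cells on day 3, 1 member was called between histotripsy-treated and control tumors with DESeq2 and 1 without the filter, in place of 0. In CD45+ cells on day 3, 1 was called against control and 1 against histotripsy-abscopal tumors without histotripsy-treated replicates 2 and 3, and 1 against histotripsy-abscopal tumors with library totals, in place of 3. Leaving out 1 library at a time gave 2 to 4 against control and 1 to 3 against histotripsy-abscopal tumors, the lowest without histotripsy-treated replicate 3. The members were chosen with these CD45+ day 3 comparisons known, so nothing is read from these counts either. Without the filter 1 member was called between the days in control CD45+ cells. The cause of these shifts was not tested.

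Among single values that did not pass the test, Slc7a11 turned with the replicate block, to 0.0027 (histotripsy-treated against control, CD45- day 7), and in CD45+ cells of day 7 to 0.12 (histotripsy-abscopal) and 0.38 (histotripsy-treated against control). It is not known whether the replicate numbers pair libraries by mouse. The block gave 4 members against control and 2 against histotripsy-abscopal tumors in CD45+ cells of day 3 in place of 3, from which nothing is read. In the all-gene counts it moved histotripsy-treated against control of day 3 from 10 to 26 in CD45- and from 800 to 1256 in CD45+ cells. Histotripsy-treated against histotripsy-abscopal of day 3 went from 16 to 117 in CD45- and from 558 to 496 in CD45+ cells. In CD45- cells of day 7, histotripsy-abscopal against control went from 32 to 0. Over libraries of at least 1000000 counts Slc7a11 was -0.50 between histotripsy-treated and histotripsy-abscopal CD45+ cells of day 7. Leaving out 1 library gave -0.41 to 0.10 (histotripsy-abscopal) and -0.16 to 0.36 (histotripsy-treated) against control in CD45- cells of day 3, and -0.020 to 0.87 in CD45- and -0.38 to 0.90 in CD45+ cells of day 7 between histotripsy-treated and histotripsy-abscopal tumors.

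The scaling moved the CD45+ day 3 comparisons. With library totals the median of all genes was -0.22 against control (-0.01 with TMM), with 414 genes higher and 663 lower in place of 637 and 163, and -0.15 against histotripsy-abscopal tumors, with 346 higher and 89 lower in place of 500 and 58. Txnrd1 was then 0.44 and Nfe2l2 0.45 above control. Between fractions of control tumors the median was -0.14 on day 3 and -0.18 on day 7 (0.04 and 0.05 with TMM). Against control on day 3, CD45- cells had 10 genes called, 49 with DESeq2 and 312 without the filter, and CD45+ cells 800, and 1244 without the filter. Against histotripsy-abscopal tumors CD45+ cells had 558, and 1022 without it. For CD45- cells these were 16 and 451, and 138 with DESeq2.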
